A study of Homo sapiens with 4 samples.

Results

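The 38 HOX genes examined lie in 4 clusters, HOXA on chromosome 7 (10 genes, HOXA2 to HOXA13), HOXB on chromosome 17 (10 genes, HOXB1 to HOXB13), HOXC on chromosome 12 (9 genes, HOXC4 to HOXC13) and HOXD on chromosome 2 (9 genes, HOXD1 to HOXD13). They were taken by gene name. Binding was read from peak lists of CUT&RUN, in which a nuclease tethered by an antibody cuts out the DNA bound by a protein for sequencing. Each gene's body with 50 kb on either side was searched for listed intervals, and 11 of the 58827 distinct intervals in the series fell in these windows.

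The cells were BJ fibroblasts, an established line from human foreskin, that had expressed an introduced, V5-tagged protein for 48 h. One group carried full-length SOX2 and the other its DNA-binding domain alone (SOX2-DBD), with 2 samples in each, and no untagged or uninduced sample was analysed here. The vector and promoter that drove expression are not given in the sources used here. One list of positions and signal per group was analysed, attached to replicate 1, so no value below has a spread between replicates and no test between groups could be made. The sequencing depth is unknown, and as the lists hold no expression values, the fibroblast label could not be checked against marker genes. Bounds given with a value are 95% limits for counting error, and they take neighbouring intervals as independent.

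HOX genes encode homeodomain transcription factors that give cells their position along the body axis, and their order along each chromosome follows the order in which they act from head to tail. Genes of the same number in different clusters are paralogues, and groups 1 to 3 are called anterior, 4 to 8 central and 9 to 13 posterior here. Fibroblasts keep part of the HOX pattern of the site they came from. In cells where they are silent, HOX clusters are known as large domains of Polycomb-marked, compacted chromatin, and SOX2 is known as a pioneer factor able to reach sites in compacted chromatin.

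Over the 4 regions of 915 kb, the 11 intervals gave 12.0 per Mb (exact Poisson 6.0 to 21.5), limits that include the 21.4 per Mb of the autosomes. All 11 were in the SOX2 list and 1 was also in the SOX2-DBD list, while the series as a whole holds 57907 SOX2 and 15220 SOX2-DBD intervals. Only 4 lay between the outermost genes of a cluster: 1 in HOXA3, 1 across HOXA9 and HOXA10, 1 at HOXC8 and 1 in LINC02086 between HOXB9 and HOXB13. The other 7 lay in the 50-kb flanks. No interval lay inside the HOXD cluster. An interval centre was within 5 kb of the canonical start of 2 of the 38 genes, against 12.3% of protein-coding genes.

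**Figure D1:**
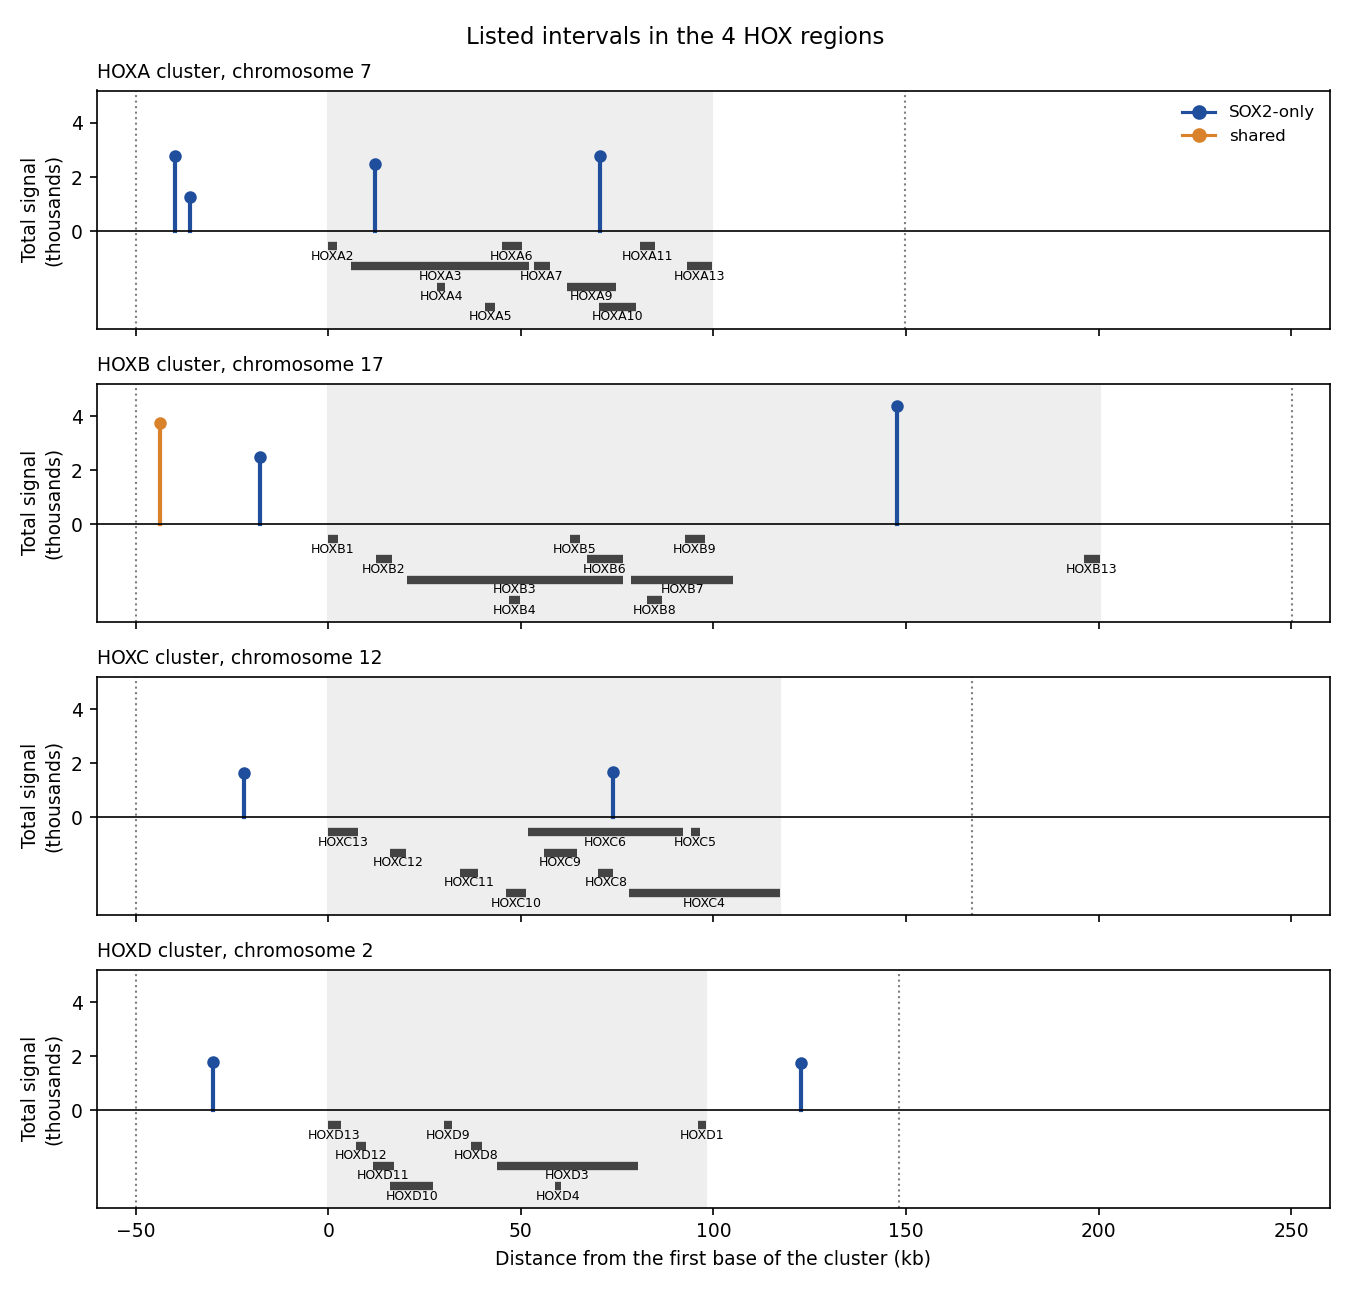
Listed intervals (vertical lines, height the deposited total signal divided by 1000) and HOX gene bodies (grey bars) against distance in kb from the first base of each cluster. Grey shading spans the outermost genes and dotted lines mark 50 kb beyond them; 2, 1, 1 and 0 intervals stand in the shaded spans of HOXA, HOXB, HOXC and HOXD.

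The sequences under the 4 intervals inside the clusters are shown because these carry the binding described below. They are the forward strand of GRCh37 (hg19), as the 200 bases at the interval's centre. For the intervals over untranslated sequence of HOXA10 and HOXC8, only the SOX core hexamer with 10 bases on either side is given. Capitals mark the SOX core hexamers ACAAAG and ACAATG, with their reverse complements CTTTGT and CATTGT, and the AP-1 heptamers TGACTCA and TGAGTCA. These motifs do not overlap each other in the stretches shown.

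HOXA3 intron, chr7:27151943-27152142: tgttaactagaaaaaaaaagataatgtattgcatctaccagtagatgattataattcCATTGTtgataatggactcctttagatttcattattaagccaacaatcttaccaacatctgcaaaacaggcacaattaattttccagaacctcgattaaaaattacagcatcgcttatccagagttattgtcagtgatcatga
HOXA9 and HOXA10, chr7:27210492-27210517: ggaaatccaaACAATGtctcccttct
HOXC8, chr12:54406492-54406517: ggtccaagtaCTTTGTattgtatacg
LINC02086, chr17:46753547-46753746: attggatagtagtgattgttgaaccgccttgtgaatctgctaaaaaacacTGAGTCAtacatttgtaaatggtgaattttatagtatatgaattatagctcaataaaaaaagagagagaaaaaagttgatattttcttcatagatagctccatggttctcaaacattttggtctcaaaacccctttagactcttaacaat

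The HOXA3 stretch held CATTGT. The HOXA10 and HOXC8 runs were cut around a hexamer, ACAATG and CTTTGT, so its presence there was fixed in advance. The LINC02086 stretch held no hexamer and 1 AP-1 heptamer. Outside the parts shown, the LINC02086 interval held 1 hexamer and the HOXC8 interval 1 AP-1 heptamer.

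In the HOXA cluster, the interval on the anterior gene HOXA3 lay at chr7:27151746-27152339, 594 bp wide, in an intron of HOXA3 and of the antisense lncRNA HOXA-AS2. Its centre was 1.42 kb from an annotated HOXA3 transcript start at the far end of the gene from the canonical HOXA3 start, to which the nearest SOX2 interval centre was 18.3 kb away. Its total signal of 2485 stood at the 53.3rd percentile of the SOX2 list, and it held 3 SOX core hexamers. None of its 31-base words, which gauge how unique a sequence is, occurred elsewhere in the genome.

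The interval on the posterior HOXA genes lay at chr7:27210110-27210827 and was 718 bp wide. It covered 604 bp of untranslated exon of HOXA10 and also exon of a HOXA9 transcript, and it lay on the gene bodies of HOXA10-AS and of ENSG00000257184, annotated as a protein-coding readthrough gene. Its centre was 0.351 kb from the start of one HOXA9 transcript and 3.47 kb from the canonical start of HOXA10. The total signal was 2768, at the 60.9th percentile, and 18.3% of its 31-base words occurred at 1 further place in the genome. As HOXA9, HOXA10 and the antisense gene overlap here, the interval cannot be given to 1 of them by position.

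Both flank intervals of HOXA lay on the HOXA2 side, outside annotated genes. The first, at chr7:27099735-27100384, was 39.6 kb from HOXA2 with a total signal of 2778, and 16.1% of its 31-base words were repeated, one of them at 125 places. The second, at chr7:27103813-27104240, was 35.7 kb from HOXA2 and had the lowest total signal of the 11, 1273, at the 4.60th percentile. Nothing was listed in the 50 kb beyond HOXA13. From the HOXA10 interval onward, 179.6 kb held no SOX2 interval, a stretch that includes HOXA11 and HOXA13, the latter a determinant of the most distal structures. Gaps at least as long between neighbouring SOX2 intervals made up 48.6% of the autosomal gap length.

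In the HOXB cluster, the 9 genes from HOXB1 to HOXB9 lay whole within 165 kb free of SOX2 intervals. Autosomal gaps at least as long made up 50.1% of the total gap length. The only interval between the outermost genes was at chr17:46753173-46754119, in an intron of LINC02086, a lncRNA gene in the long gap before HOXB13. At 947 bp it was the widest of the 11, and its total signal of 4354, at the 86.4th percentile, was the highest. The nearest HOX gene body was that of HOXB7, whose annotated span runs past HOXB9, at 42.2 kb. HOXB13 was at 48.0 kb and HOXB9 at 49.5 kb, just within the 50-kb limit. Of its 31-base words, 7.09% were repeated, one of them at 1389 places.

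On the HOXB1 side, a SOX2-only interval at chr17:46588037-46588528 lay 17.4 kb from HOXB1 with a total signal of 2500. Farther out, at chr17:46562088-46562470, 43.4 kb from HOXB1, lay the only interval also listed for SOX2-DBD. It was 383 bp wide with a total signal of 3729, and the authors' seventh column, of unstated meaning, held 0 for it. Shared intervals carry the same values in either list, and which protein's library gave that signal is not stated. HOXB1, a hindbrain patterning gene, was therefore the 1 of 38 genes with a SOX2-DBD interval within 50 kb, against 39.3% of all protein-coding genes. That share is over genes of any length, and the HOX windows overlap heavily. As a density, 1 interval gave 1.09 per Mb of the 4 regions, with limits of 0.0277 to 6.09 that include the autosomal 5.63. Just outside 50 kb, HOXA2 was 53.1 kb from a shared interval at chr7:27086463-27086851 (total signal 1857), and HOXB2 was 55.8 kb from the one beyond HOXB1.

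In the HOXC cluster, the interval at chr12:54406242-54406642 overlapped the end of HOXC8 by 312 bp, all of it untranslated exon, and lay in introns of HOXC6 and of the readthrough gene ENSG00000273049. Its centre was 3.67 kb from the HOXC8 start, its width was 401 bp and its total signal was 1661, at the 22.9th percentile. It was absent from the down-sampled SOX2 list, a shorter list of SOX2 positions that the authors also deposited. The other HOXC interval, at chr12:54310403-54310933, lay 21.7 kb beyond HOXC13, outside annotated genes, with a total signal of 1627. Between these, 95.3 kb that hold HOXC13, HOXC12, HOXC11, HOXC10 and HOXC9 had none, and from HOXC8 onward HOXC4 and HOXC5 lay in 209.9 kb without one. Autosomal gaps at least as long as these stretches made up 60.7% and 45.8% of the total gap length.

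In the HOXD cluster, all 9 genes lay in a single stretch of 152 kb without a SOX2 interval. Among the gaps between neighbouring SOX2 intervals on the autosomes, 4.58% were as long, and such gaps made up 51.6% of the total gap length. An interval at chr2:176927236-176927852 lay 29.6 kb beyond HOXD13 with a total signal of 1790, and one at chr2:177080107-177080433 lay 24.5 kb beyond HOXD1 with 1761. Both were SOX2-only, outside annotated genes and in the lower signal range, at the 28.4th and 27.1st percentiles.

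As a set, the 11 intervals resembled the SOX2 list in width and signal. Their widths ran from 327 to 947 bp with a median of 531 bp, against 513 bp for the whole list, and their total signal from 1273 to 4354 with a median of 2485, against 2375. The 6 above the list's median were all in the HOXA and HOXB regions, and the 4 of HOXC and HOXD lay below it. The down-sampled list held 9 of the 11, all but the HOXC8 interval and the outer one beyond HOXA2, and 64.3% of all SOX2 intervals. The 1 shared interval of 11 made 9.09% (Wilson 1.62 to 37.7), a range that includes the 24.7% of the whole list.

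Gene by gene, 31 of the 38 had at least 1 SOX2 interval in the body or within 50 kb. The same was true of 69.5% of all protein-coding genes, and of 61.7% of those no longer than the longest HOX gene, HOXB3, at 56 kb. The HOX windows overlap heavily, so the 31 genes rest on 11 intervals, and the median gene had 1 interval, as did the median gene of this length. All 10 HOXA and all 9 HOXC genes had one, with up to 4 at HOXA3, against 6 of 10 HOXB and 6 of 9 HOXD genes. The 7 without were HOXB4, HOXB5, HOXB6, HOXB8, HOXD4, HOXD8 and HOXD9. They lie in the middle of HOXB or HOXD, 59.6 to 80.1 kb from the nearest SOX2 interval. By paralogue class, 7 of 7 anterior, 9 of 15 central and 15 of 16 posterior genes had an interval. Class goes with position in the cluster and the counts change with the distance searched, and an effect of class was not tested.

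On the gene bodies themselves, 5 of 38 genes had an interval (HOXA3, HOXA9, HOXA10, HOXC6 and HOXC8), against 38.3% of all protein-coding genes and 21.3% of those up to 56 kb. These 5 shared 3 intervals. Within 5 kb of the canonical start, 2 of 38 genes had an interval centre, HOXA10 at 3.47 kb and HOXC8 at 3.67 kb, against 12.3% of protein-coding genes. Measured from the canonical start, the nearest SOX2 interval centre was at a median of 32.0 kb, against 29.1 kb for all protein-coding genes.

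The clusters differed in this distance. In HOXA it ran from 3.47 kb at HOXA10 to 29.2 kb at HOXA13 (median 16.4 kb), and in HOXC from 3.67 kb at HOXC8 to 41.2 kb at HOXC4 (median 21.9 kb). In HOXB it ran from 20.1 kb at HOXB1 to 82.5 kb at HOXB5 (median 63.1 kb), and in HOXD from 26.9 kb at HOXD1 to 66.9 kb at HOXD8 (median 54.0 kb). The genes of a cluster share their nearest intervals, so these distances are not independent of each other.

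**Figure D2:**
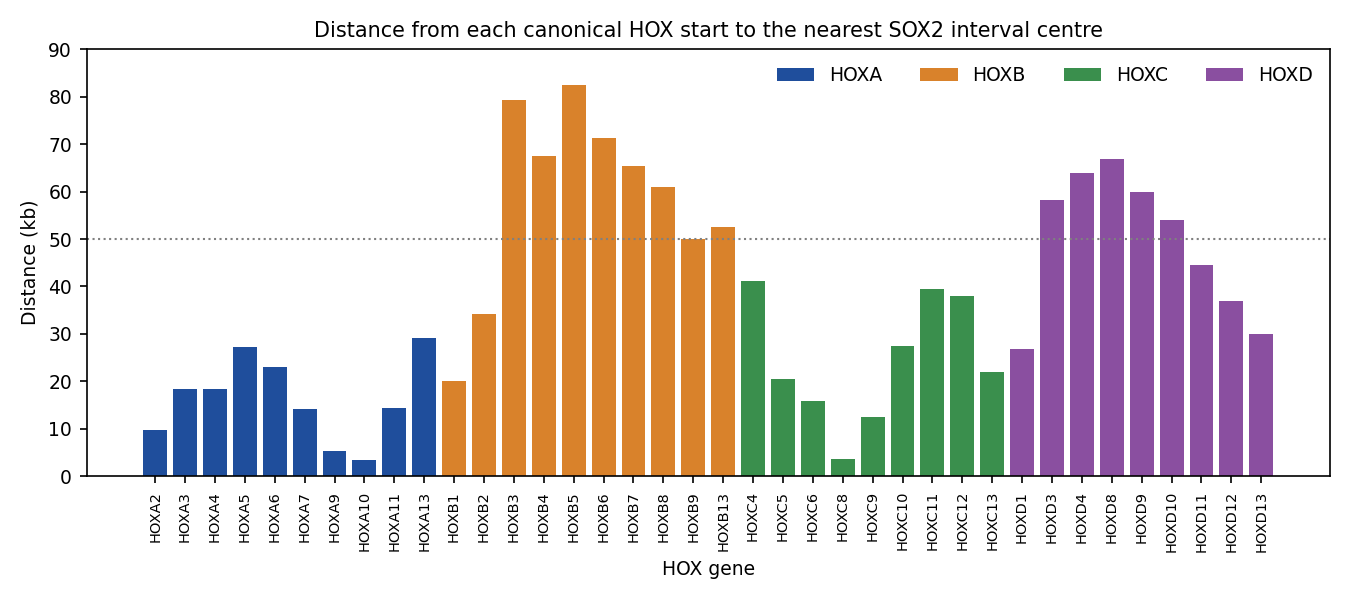
Distance in kb from the canonical start of each of the 38 HOX genes to the centre of the nearest SOX2 interval, by cluster, with a dotted line at 50 kb. HOXA and HOXC genes lie at 3.47 to 41.2 kb, whereas HOXB and HOXD genes reach 82.5 and 66.9 kb.

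Inside the 4 clusters, 4 SOX2 intervals over 515 kb gave 7.76 per Mb (exact Poisson 2.11 to 19.9). In the flanks, 7 over 400 kb gave 17.5 per Mb (7.04 to 36.1). The inside density was 0.444 times that of the flanks, with exact limits of 0.0952 to 1.74, so a difference between inside and flanks was not detectable with this number of intervals. Against the autosomes as a whole, at 21.4 per Mb, the upper limit inside, 19.9, was below that density, while the flank limits included it. Such limits cover counting error only, and the intervals are unevenly spread, with none in 40.7% of autosomal 100-kb tiles. They therefore cannot show that the clusters differ from other stretches of their length. The place of the inside upper limit below 21.4 depended on HOXB, HOXC and HOXD. It passed 21.4 without HOXB (9.52 per Mb, 1.96 to 27.8), without HOXC (7.53, 1.55 to 22.0) or without HOXD (9.59, 2.61 to 24.6). Without HOXA it stayed below (4.81, 0.583 to 17.4). Intervals covered 0.516% of the bases inside, 0.857% of the flanks and 1.21% of the autosomes.

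By cluster, the inside densities were 20.1 per Mb in HOXA (2.43 to 72.4), 4.99 in HOXB (0.126 to 27.8), 8.53 in HOXC (0.216 to 47.5) and 0 in HOXD (up to 37.6). The flanks stood at 20 per Mb in HOXA, HOXB and HOXD and at 10.0 in HOXC. No pair of clusters could be told apart at counts of 0 to 2. The empty HOXD cluster is 98.2 kb long, and 40.7% of all autosomal tiles of 100 kb held no SOX2 interval. For SOX2-DBD, 1 interval in all 4 regions gave 1.09 per Mb (0.0277 to 6.09), a range that includes the autosomal 5.63.

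GC content inside HOXA, HOXB, HOXC and HOXD was 51.9%, 49.3%, 52.6% and 51.0%. Their inside densities of 20.1, 4.99, 8.53 and 0 per Mb rest on counts of 2, 1, 1 and 0. Whether base composition bears on density was not tested. The 4 clusters together had a GC content of 50.9% inside and 45.2% in the flanks, against 41.0% over the autosomes, and SOX core hexamers were present at 1.02, 1.19 and 1.61 per kb. Over all autosomal tiles of 10 kb, SOX2 interval density fell from 29.8 per Mb at 36 to 40% GC to 4.79 at 48 to 52% and 1.74 at 52 to 56%. Of the 52 tiles inside the clusters, 41 had a GC content of 48% or more, against 13 of 40 flank tiles and 12.2% of autosomal tiles. At the densities of autosomal tiles in the same GC bands, the inside tiles would hold 2.74 intervals and the flank tiles 5.98. They held 4 and 7.

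**Figure D3:**
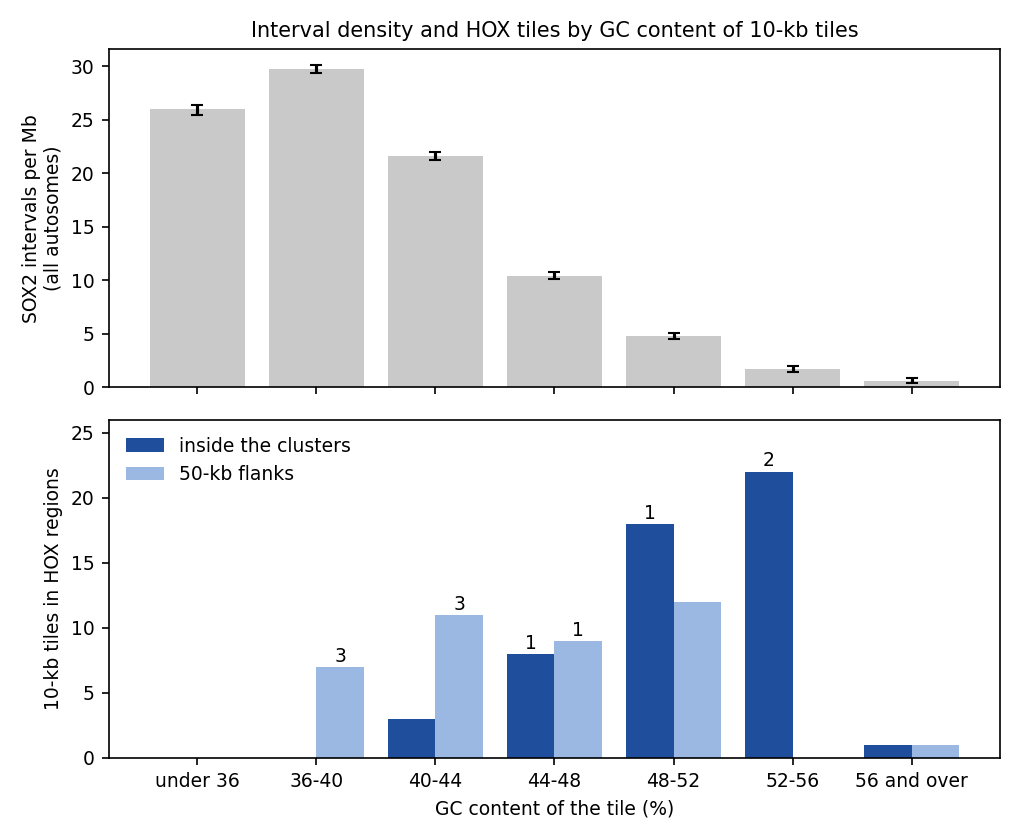
Upper panel, SOX2 intervals per Mb over all autosomal 10-kb tiles by GC content, with exact Poisson 95% limits; lower panel, number of tiles inside the HOX clusters and in their 50-kb flanks by GC content, with the number of SOX2 intervals they hold above each bar. The 52 tiles inside the clusters held 4 intervals and the 40 flank tiles 7, against 2.74 and 5.98 at the autosomal densities of the same GC bands.

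The intervals themselves were AT-rich. Their GC content ran from 29.2% (the interval beyond HOXC13) to 39.1% (beyond HOXD1), with a median of 34.2%, against a median of 34.1% over the SOX2 list. The 4 inside the clusters had 33.1 to 37.7% GC, and the 10-kb tiles there ranged from 40.8% to 56.2%. The tiles average over far longer sequence than the intervals, and stretches of interval length there were not measured.

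The SOX core hexamer was present in the 200-base centre window of 6 of the 11 intervals (54.5%, Wilson 28 to 78.7), against 47.3% over the SOX2 list. Windows 10 kb downstream held it in 5 of 11 (45.5%, 21.3 to 72.0), against 27.7% over the list, and the limits of both shares overlap. Over their whole length, 9 of the 11 held at least 1 hexamer, the exceptions being the shared interval and the weaker one beyond HOXA2; this was 81.8% (Wilson 52.3 to 94.9), against 77.1% of the SOX2 list. An AP-1 heptamer was found in 4, namely the LINC02086, HOXC8 and shared intervals and the one beyond HOXD1, or 36.4% (15.2 to 64.6) against 18.5% of the list, which lies within those limits. A match describes the sequence only.

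The promoters of the 38 genes, taken as 250 bases before to 50 after the canonical start, held the hexamer in 11 cases, namely HOXA11, HOXB1, HOXB3, HOXB4, HOXB6, HOXB9, HOXC6, HOXC10, HOXC12, HOXD10 and HOXD12. Of all protein-coding promoters, 18.4% held it. An interval centre lay within 5 kb of the start of 2 of the 38 genes, neither of them among these 11, against 12.3% of protein-coding genes. At such counts, whether promoter hexamers and intervals go together could not be assessed. The median GC content was 55.3% in HOX promoters and 63.7% in all.

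Farther out, the density was 20.6 per Mb at 50 to 250 kb from the clusters (14.2 to 29.0), 27.5 at 250 to 500 kb (20.7 to 35.8) and 18.5 at 500 to 1000 kb (14.5 to 23.2), and all these limits include the autosomal 21.4. The intervals were unevenly spread between sides. Beyond HOXA2, SKAP2, which encodes an adaptor protein of Src-family kinase signalling, held 5 of the 8 intervals at 50 to 250 kb and 11 of the 12 at 250 to 500 kb. Beyond HOXA13, 1 interval lay at 50 to 250 kb and 26 at 500 to 1000 kb, of which 21 were in JAZF1, a zinc finger gene. Beyond HOXD13, 11 lay at 50 to 250 kb, 7 of them in LNPK, whereas the HOXD1 side had 6 there. At 50 to 250 kb, HOXB had 2 and 1 and HOXC 3 and 1 on their lower and higher sides.

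SOX2-DBD intervals numbered 1 at 0 to 50 kb, 6 at 50 to 250 kb, 18 at 250 to 500 kb and 23 at 500 to 1000 kb over both sides of the 4 clusters. The bands differ in length, and 12 of the 23 lay beyond HOXA13.

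**Figure D4:**
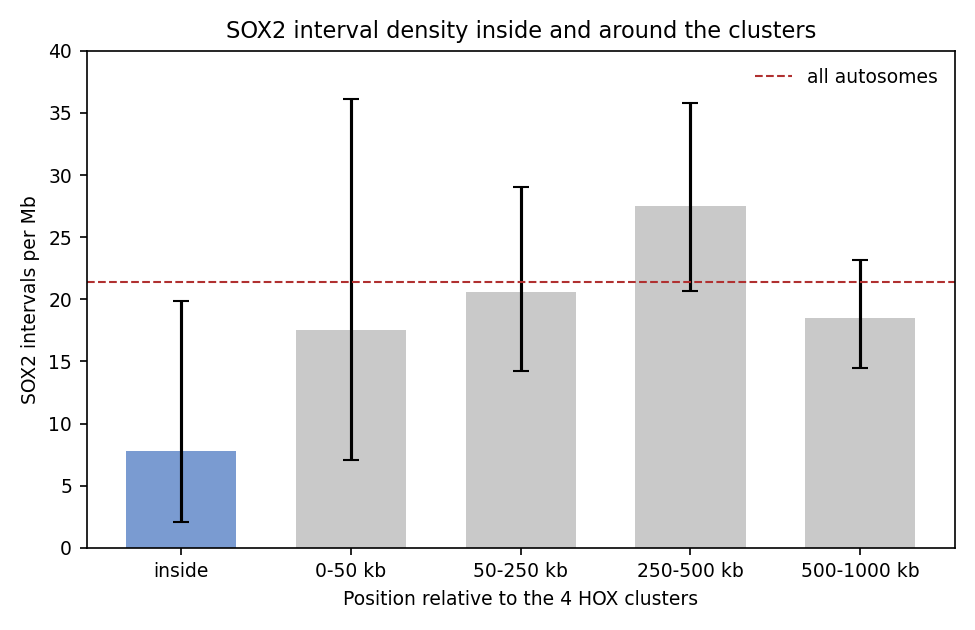
SOX2 intervals per Mb inside the 4 HOX clusters and in 4 bands of distance on both sides, with exact Poisson 95% limits and the autosomal density as a dashed line. The inside value of 7.76 has an upper limit of 19.9, under the autosomal 21.4, and the limits of all 4 distance bands include 21.4. The limits cover counting error only and take intervals as independent.

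Several genes that work with the HOX proteins or control the clusters, most of them far longer than a HOX gene, held many intervals on their own bodies. Among homeodomain cofactors that bind DNA with HOX proteins, PBX3 had 18 on a body of 220.0 kb (81.8 per Mb), MEIS2 13 on 212 kb (61.3 per Mb) and MEIS1 12 on 140.4 kb (85.5 per Mb). Of those at MEIS1, 7 were also in the SOX2-DBD list, whereas MEIS2 had none there. PKNOX1 and PKNOX2 had 1 each on the body.

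Among 7 chromatin regulators, 5 had an interval on the body, against 38.3% of all protein-coding genes, a share over genes of any length. The Polycomb genes EZH2, the histone H3K27 methyltransferase, JARID2, EED and SUZ12 had 7, 8, 4 and 2, and KMT2A, a histone H3K4 methyltransferase that maintains HOX expression, had 3. EZH1 and MEN1 had none within 50 kb. In the retinoic acid pathway, which induces HOX genes in the embryo, RARB, a receptor, had 26 on 910.0 kb and ALDH1A2, which makes retinoic acid, had 17 on 544 kb. CYP26A1, CYP26B1, CYP26C1, which degrade it, and RARG had 2 to 4 within 50 kb and none on the body, and RARA had no SOX2 but 1 SOX2-DBD interval within 50 kb.

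The ParaHox genes, the relatives of the HOX genes (CDX1, CDX2, CDX4, GSX1, GSX2 and PDX1), and the HOX neighbours EVX1 and EVX2 had none on the body, and 3 of these 8 had one within 50 kb. Over the 31 coding genes of all lists, 13 had an interval on the body and 21 within 50 kb. These counts were close to the shares of all protein-coding genes, 38.3% and 69.5%. Of 17 lncRNA genes of the clusters, 16 had a SOX2 interval within 50 kb, against 63.3% of all lncRNA genes, and 1 had a SOX2-DBD interval there. On the body, 2 of the 17 had one (HOXA-AS2 and HOXA10-AS), against 18.5% of all lncRNA genes. The 5 cluster miRNA genes found in the annotation, among them MIR196A1, MIR196B and MIR10B, had none on the body, and 4 of them had one within 50 kb. These genes share windows and intervals with the HOX genes.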

How the data were processed

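Peak positions with total and maximum signal per interval were used as the authors deposited them, for SOX2 and for SOX2-DBD, attached to replicate 1 of each group. The normalization of that signal and any pooling of replicates are not given in the sources used here. Per the submitters' processing notes, Bowtie2 2.3.4.1, SAMtools, bedtools 2.27.1, SEACR 1.3 and deepTools 3.5.0 were among the tools and the build was hg19; their roles and settings are not given. A further, down-sampled SOX2 list holds positions only.

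Exact duplicate rows, 1654 in each list, were counted once. Genes were those of GENCODE release 44 mapped to GRCh37, and an overlap of 1 bp counted. Canonical starts are those of the transcripts tagged as canonical. Density refers to determined bases. Limits are exact Poisson for counts and Wilson for shares. Repeated sequence was measured as 31-base words on both strands; the reference carries no repeat masking, so the planned masked share was not computed.

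By the naming rule, each interval between the outermost genes and the strongest flank interval per class and cluster were described; the weaker ones beyond HOXA2 and HOXD1, and genes up to 1000 kb away, were added after their values were seen. The 38 genes and all gene lists were chosen with earlier results of these data known. Signal values of shared intervals stand in both lists, so signal was used only to rank intervals within the SOX2 list. Window counting was checked on simulated intervals, with 200 of 200 windows equal to a brute-force count. The tools were matplotlib 3.10.9, scipy 1.17.1, numpy 2.4.6, pyfaidx 0.9.0.4, pandas 2.3.3 and Python 3.11.15. Some results, sequences among them, are not reported here.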

Additional observations from a re-analysis of the deposited data

How the results depend on the processing

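Of the values recomputed under other settings, 72 stayed within 1.5 times the main count or within its 95% limits and 29 did not, most of them through the distance searched. With 10 kb either side, 4 intervals remained in the 4 regions (HOXA 2, HOXB 1, HOXC 1, HOXD 0), 0 of them from the SOX2-DBD list, 9 genes had a SOX2 and 0 a SOX2-DBD interval, the shared share was 0% and the flank density 0 per Mb. With 25 kb there were 7 intervals (HOXA 2, HOXD 1), 0 from the SOX2-DBD list, 18 genes with a SOX2 and 0 with a SOX2-DBD interval, and a shared share of 0%. With 100 kb there were 18 intervals (HOXA 7, HOXD 5), 2 from the SOX2-DBD list, and 9 genes with a SOX2-DBD interval, while all 38 genes had a SOX2 interval. These follow from the sizes of the windows.

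The upper 50% of intervals by total signal left 6 in the 4 regions, 0 in HOXC and 0 in HOXD, and 16 genes with a SOX2 interval, by the lower signal of the HOXC and HOXD intervals. The down-sampled list left 1 in HOXC, and 100-bp windows held the SOX core hexamer in 27.3%, as shorter windows do. All annotated genes as background gave 62.9% in place of 69.5%. The inside density lay between 4.81 and 9.59 per Mb and the ratio of inside to flanks between 0.289 and 0.776 over the alternatives that gave one. Without HOXB, HOXC or HOXD, the limits of the inside density included the autosomal 21.4 per Mb. The backgrounds of shorter genes and of GC bands were chosen after the data were seen. No paired analysis was possible because only replicate 1 of either group came with a list; for the same reason no replicate could be left out. The ratio with flanks of 10 kb could not be computed. The small number of intervals limits every comparison between clusters.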
